A study of Homo sapiens with 6 samples.

Results

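The 48 genes described here encode the factors that start, carry out and end translation on cytosolic ribosomes: 38 initiation factor genes of the EIF1 to EIF6 families (with EIF5A, which acts in elongation, and the repressor genes EIF4EBP1 and EIF4EBP2), 7 elongation factor genes of the EEF1 and EEF2 families with the kinase gene EEF2K among them, the poly(A) binding protein genes PABPC1 and PABPC4, and the release factor gene ETF1. They were chosen by symbol and function from 59609 gene names, with no threshold on their values but with earlier results of these data known, and all 48 were found and passed the filter on low values. RNA was measured in 95D cells, a line derived from a human lung cancer and labelled wild type, after 48 h in glucose-free medium with dialyzed serum (2 libraries), in glutamine-free medium with dialyzed serum (1 library used of 2 labelled) or in complete control medium (2 libraries). Seeding in complete medium for 24 h came before the change, and serum was at 10% throughout. No dialysis of the control serum is stated, so the missing nutrient and the change of serum cannot be told apart in the comparisons with control. Levels below are in FPKM, a unit that corrects fragment counts for exon length and library depth, after scaling between libraries, so they can be compared between genes.

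Translation begins when the initiator tRNA, carried by eIF2, and the small ribosomal subunit are brought to the capped end of an mRNA by eIF3 and the cap-binding complex of eIF4E, eIF4G and the helicase eIF4A. The exchange factor eIF2B recharges eIF2 with GTP, and its inhibition by phosphorylated eIF2 is the point where nutrient and endoplasmic reticulum stress slow translation. The kinase complex mTORC1 acts on the same pathway through the eIF4E binding proteins, and it also governs translation of mRNAs that begin with a cytosine and an unbroken run of pyrimidines, the terminal oligopyrimidine (TOP) mRNAs, to which many elongation factor mRNAs belong. Deprivation of amino acids or glucose is known to engage both controls.

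Start-site sequences of the members are shown first because several members belong to the TOP class, which is defined by the first bases of the mRNA. RefSeq start windows on GRCh38.p14, which reach from 250 bases before to 50 bases after each annotated start, were found for 38 of the 48 members by symbol. A cytosine at the start base that opened a run of at least 5 pyrimidines was present in 9 of these 38 members (23.7%). It was present in 5.14% of the 27305 genes in the table, many of them not tested here. Of the 9832 tested genes with a window, 743 had it. A gene with several listed starts counted if any start had it. The following 8 windows show 20 bases on each side of the start, with the run in capitals beginning at the start base.
EEF2 (chr19:3985444-3985483, minus strand): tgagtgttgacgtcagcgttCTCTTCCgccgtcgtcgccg
EEF1A1 (chr6:73521013-73521052, minus strand): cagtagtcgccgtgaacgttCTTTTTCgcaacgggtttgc
EIF3F (chr11:7987317-7987356, plus strand): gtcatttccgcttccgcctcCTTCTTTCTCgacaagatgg
EIF4B (chr12:53006436-53006475, plus strand): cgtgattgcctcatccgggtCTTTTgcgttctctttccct
EIF4A2 (chr3:186783557-186783596, plus strand): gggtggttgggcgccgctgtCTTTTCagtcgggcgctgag
EIF3D (chr22:36529147-36529186, minus strand): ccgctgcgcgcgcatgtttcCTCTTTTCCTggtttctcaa
EIF3K (chr19:38619168-38619207, plus strand): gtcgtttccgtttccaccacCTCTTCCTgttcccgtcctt
EIF3M (chr11:32583811-32583850, plus strand): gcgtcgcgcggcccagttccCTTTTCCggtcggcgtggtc
The ninth member with such a run is EEF1B2. The windows of 7 members with no such run follow, all in lower case: EIF2S1, EIF5, EIF4A3 and ETF1, which fell in glucose deprivation, and EIF1, EIF4G3 and EEF1G, which rose. All 7 were chosen after their values were seen, to show members of both directions.
EIF2S1 (chr14:67360308-67360347, plus strand): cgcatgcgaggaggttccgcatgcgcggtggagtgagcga
EIF5 (chr14:103334217-103334256, plus strand): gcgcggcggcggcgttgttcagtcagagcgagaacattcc
EIF4A3 (chr17:80147109-80147148, minus strand): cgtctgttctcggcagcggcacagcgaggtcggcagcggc
ETF1 (chr5:138543217-138543256, minus strand): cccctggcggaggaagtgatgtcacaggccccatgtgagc
EIF1 (chr17:41688865-41688904, plus strand): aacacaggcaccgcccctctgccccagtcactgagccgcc
EIF4G3 (chr1:21111364-21111403, minus strand): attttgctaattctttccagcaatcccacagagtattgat
EEF1G (chr11:62573872-62573911, minus strand): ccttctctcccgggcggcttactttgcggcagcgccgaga
A run at an annotated start is a description of the sequence and not evidence of regulation, and no run says only that the letters are not at this annotated base.

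Depth, inferred from the steps of low values, was 34540000 to 48950000 fragments a library, with control replicate 2 the deepest. At these depths the member with the fewest fragments in a library, EIF3C, rested on about 496, a counting error of 4.49%. Members differed between replicates by a median coefficient of variation of 2.43% in glucose deprivation and 2.6% in control. Of the markers of an epithelial lung line, KRT18 (15.96 to 21.7 FPKM) and KRT8 (4.15 to 5.50) were present, EPCAM and CDH1 stayed under 0.25 FPKM in every library and KRT19 and SFTPB were at 0. VIM, a mesenchymal filament gene that many carcinoma lines express, was the most abundant marker and moved with glucose deprivation, with 135 and 150.4 FPKM without glucose, 85.1 FPKM without glutamine and 77.7 and 76.2 FPKM in control. Its part in the results was not tested. Of 11 markers of other cell types 9 stayed under 1 FPKM in every library, and their sum lay between 4.97 and 5.92 FPKM in glucose deprivation, at 5.45 in glutamine deprivation and between 3.15 and 4.01 in control, with SYP the most abundant. In RNA from whole cultures, fewer cells with a transcript and less of it per cell cannot be told apart.

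Without glucose the translation factor genes split: 18 of 48 rose and 22 fell at an adjusted p under 0.05 (limma over 16598 genes), with a median log2 fold change of -0.09. Of all genes tested 54.8% passed, 26.6% higher and 28.3% lower, with a median of 0.02. Of the 4472 more abundant genes, those averaging 10 FPKM or more over the libraries, 73.9% passed, 21.3% higher and 52.5% lower, with a median of -0.16, and 41 of the members are among them. The 41 abundant members had a median of -0.02. Without glutamine 9 members rose and 33 fell, with a median of -0.34, beside 51.1% of all genes tested that passed, 24.6% higher and 26.4% lower (median 0.04), and 75.5% of the abundant genes, 10.6% higher and 64.8% lower (median -0.31). The share of members that fell without glutamine is therefore close to that of other abundant genes. In the direct comparison 4 members were higher and 29 lower in glutamine than in glucose deprivation (median -0.25), where 44.5% of all genes tested passed, 22.4% higher and 22.1% lower, and 61.9% of the abundant genes, 18.1% higher and 43.8% lower. Both glucose-deprived libraries lay above both controls for 19 members and below them for 26, where 40.2% and 38.1% of all genes tested did so.

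The glutamine counts rest on the scaling. When libraries were scaled to their total, the median of all genes in glutamine deprivation against control moved to 0.30 and 3 members were called lower in place of 33. The median of the members relative to that of all genes was -0.33 under this scaling and -0.39 under the scaling used. A scaling factor moves both medians nearly alike, so their difference is no test of stability. With the scaling used, it was -0.14 when only genes averaging at least 5 FPKM were kept. Falls without glutamine are thus relative to the scaling used, and 6 of the 33 members called lower had a positive sign under scaling to the total. In the direct comparison scaling to the total left 1 member lower in place of 29. The relative medians were -0.24 and -0.27, which are no test of stability either. In glucose deprivation it left 8 members lower in place of 22, and leaving out control replicate 2 left 14. The 2 comparisons with control share their control libraries, and every glutamine value comes from a lone library that is assumed to vary like the others.

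**Figure D1:**
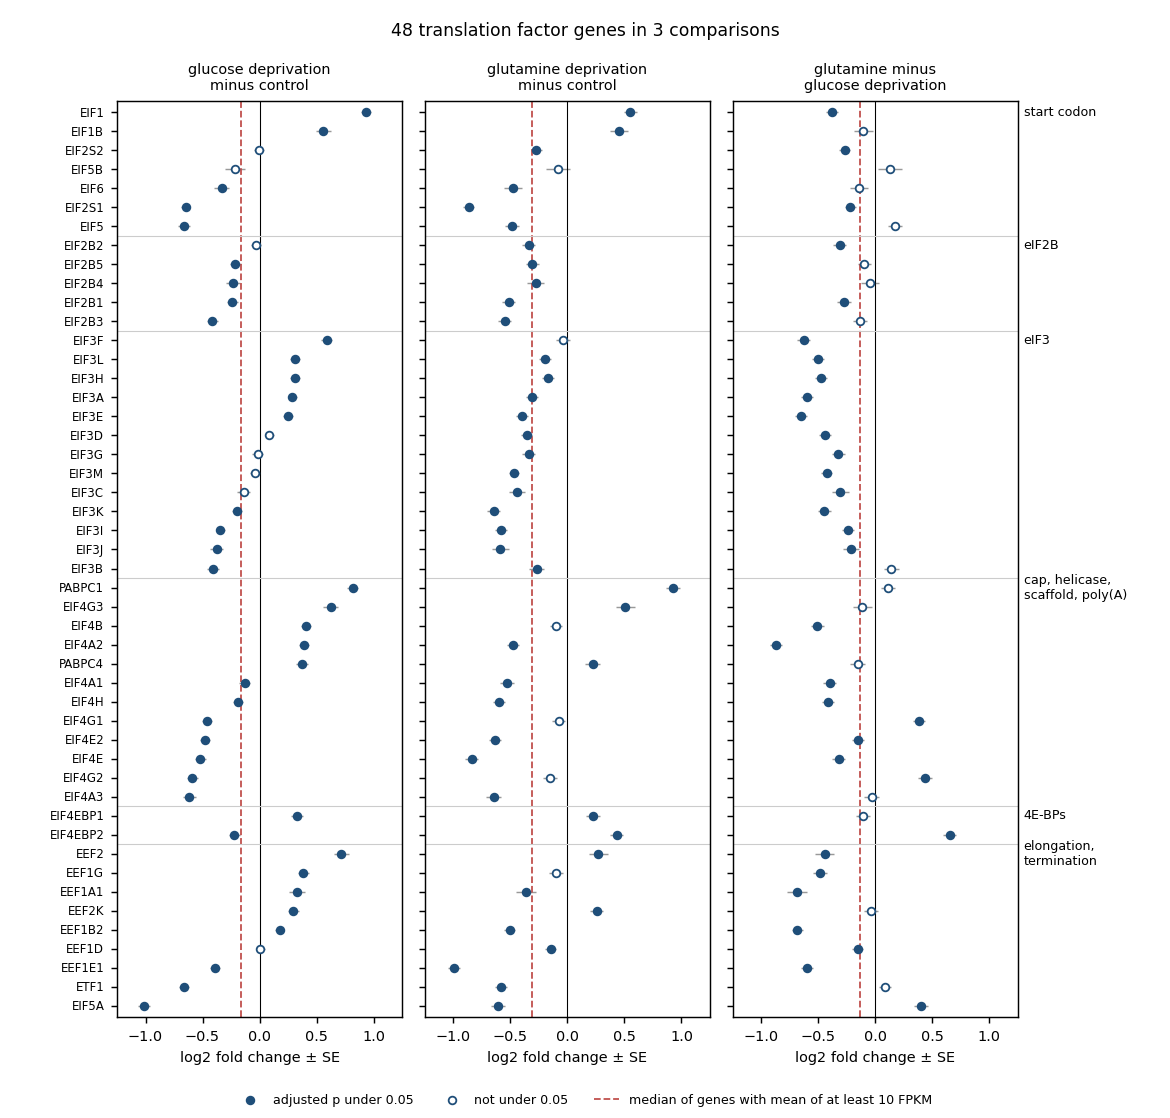
Log2 fold change on the log2(FPKM + 1) scale (x axis, bars are SE) of the 48 members, grouped by role, in the 3 comparisons. Filled points passed an adjusted p under 0.05 and the dashed line is the median of the 4472 genes that average 10 FPKM or more. In glucose deprivation points lie on both sides, from -1.01 for EIF5A to 0.93 for EIF1. In glutamine deprivation 12 of 13 eIF3 genes fell with the scaling used, as did 64.8% of those 4472 genes. With scaling to the total none of the 13 fell.

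The genes that select the start codon moved in opposite directions. EIF1 (chr17:41688885-41692668, plus strand, gene span on hg38 from GENCODE release 29), which keeps the scanning ribosome from starting at a poor codon, had the largest rise of all members in glucose deprivation. Its level was 84.8 and 86.8 FPKM without glucose, 65.7 FPKM without glutamine and 45.9 and 43.2 FPKM in control, a log2 fold change of 0.93 ± 0.04 (SE, adjusted p = 7.42e-06, limma) without glucose and 0.55 ± 0.06 (adjusted p = 0.000149) without glutamine. Both deprived groups lay above both controls, and glutamine deprivation lay below glucose deprivation (-0.38 ± 0.06, adjusted p = 0.00118). Its paralog EIF1B rose too, to 13.2 FPKM in each glucose-deprived library and 12.2 FPKM without glutamine, against 8.14 and 9.18 FPKM in control. EIF5, the GTPase activating protein that opposes EIF1 at the start codon, fell to 30.7 and 28.1 FPKM without glucose and 33.2 FPKM without glutamine, against 46.7 and 47.5 FPKM in control. The changes of EIF5 were -0.66 ± 0.05 (adjusted p = 3.49e-05) and -0.49 ± 0.06 (adjusted p = 0.000421).

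Of the subunits of eIF2, the alpha subunit gene EIF2S1, which carries the regulatory phosphorylation site, fell and the beta subunit gene EIF2S2 did not follow it without glucose. EIF2S1 stood at 19.8 and 19.5 FPKM without glucose, 16.7 FPKM without glutamine and 30.9 and 31.8 FPKM in control (-0.65 ± 0.04, adjusted p = 1.7e-05, and -0.87 ± 0.05, adjusted p = 2.78e-05). Every deprived library was below both controls. EIF2S2 had 85.7 and 86.7 FPKM without glucose, 71.4 FPKM without glutamine and 84.8 and 88.1 FPKM in control, so glucose-deprived and control libraries overlapped (adjusted p = 0.954), and it fell without glutamine (-0.27 ± 0.05, adjusted p = 0.0029, or 0.0515 without control replicate 2, and 0.0441 on the log2 scale with scaling to the total). The call of EIF2S2 without glutamine was lost with values as deposited (-0.11), upper-quartile scaling (-0.10) and scaling to the total. The subunit joining GTPase gene EIF5B passed in no comparison, with 8.77 and 6.92 FPKM, 8.63 FPKM and 9.21 and 9.2 FPKM in the 3 media in the same order. EIF6, which holds the large ribosomal subunit apart from the small one until it is ready, fell in both deprivations (-0.33 ± 0.07 and -0.48 ± 0.08).

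All 5 genes of the exchange factor eIF2B fell without glutamine and 4 of 5 fell without glucose, and none rose in either. Of all genes tested 26.4% fell without glutamine and 28.3% without glucose, and of the abundant genes 64.8% and 52.5%. The medians of the 5 genes were -0.34 and -0.23, against -0.31 and -0.16 for the abundant genes. The changes of the 5 were modest: with scaling to the total none of them passed in either comparison. Without glucose they ran from -0.42 for EIF2B3 to -0.03 for EIF2B2, which did not pass, and without glutamine from -0.55 for EIF2B3 to -0.28 for EIF2B4. The catalytic subunit gene EIF2B5 had 6.36 and 6.58 FPKM without glucose, 5.98 FPKM without glutamine and 7.5 and 7.8 FPKM in control. The deprived libraries were below both controls, with changes of -0.21 ± 0.05 (adjusted p = 0.00587) and -0.31 ± 0.06 (adjusted p = 0.0028). Without control replicate 2 the first of these calls was lost (adjusted p = 0.0772). Summed over the 5 genes, the level was 48.3 and 50.4 FPKM without glucose, 42.5 FPKM without glutamine and 58.4 and 60.4 FPKM in control.

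The 13 subunit genes of eIF3, the largest initiation factor and the scaffold of the small ribosomal subunit, separated without glucose and mostly fell without glutamine. Without glucose 5 rose (EIF3A, EIF3E, EIF3F, EIF3H, EIF3L), 4 fell (EIF3B, EIF3I, EIF3J, EIF3K) and 4 passed in neither direction, and the summed level was 858 and 872 FPKM, against 865 and 869 FPKM in control. With scaling to the total 3 rose and none fell without glucose, so all 4 falls were lost. Of all genes tested 26.6% rose and 28.3% fell without glucose, and of the abundant genes 21.3% and 52.5%. Without glutamine 12 fell and none rose, with a sum of 651 FPKM. Of the abundant genes 64.8% fell there, with a median of -0.31 against -0.36 for the 13. With scaling to the total none of the 13 passed, and EIF3A, EIF3B, EIF3H and EIF3L had a positive sign. In the direct comparison 12 of 13 were lower without glutamine (none with scaling to the total). EIF3B, the RNA-binding core subunit, was the exception (0.14 ± 0.06, adjusted p = 0.111). Of the abundant genes 43.8% were lower in that comparison, with a median of -0.13 against -0.44 for the 13.

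EIF3F had the largest rise of the complex without glucose. It stood at 26.4 and 28.3 FPKM without glucose, 17.3 FPKM without glutamine and 18.1 and 17.6 FPKM in control, changes of 0.59 ± 0.05 (adjusted p = 4.27e-05) and -0.04 ± 0.06 (adjusted p = 0.592). The glutamine-deprived library was thus at the level of the controls and the glucose-deprived ones were above it. EIF3A, the largest subunit, had 104 and 102 FPKM without glucose, 67.8 FPKM without glutamine and 83.3 and 85.1 FPKM in control (0.29 ± 0.04 and -0.31 ± 0.05). The level of EIF3E was 107 and 102 FPKM without glucose, 66.2 FPKM without glutamine and 86.6 and 88.7 FPKM in control (0.25 ± 0.04 and -0.40 ± 0.05). EIF3L had 95.0 and 97.6 FPKM, 67.7 FPKM and 79.2 and 75.9 FPKM in that order (0.31 ± 0.04 and -0.19 ± 0.05). EIF3A, EIF3E and EIF3L were on opposite sides of the controls in the 2 deprivations, with direct differences of -0.60 ± 0.05, -0.65 ± 0.05 and -0.50 ± 0.05 (adjusted p of 0.000155, 0.000126 and 0.000319). Under scaling to the total the first 2 lay at adjusted p of 0.168 and 0.103, and EIF3L at 0.300. The rises of EIF3A and EIF3E without glucose were also lost with that scaling (adjusted p of 0.0601 and 0.0878).

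With the scaling used, EIF3K and EIF3J fell in both deprivations. With scaling to the total neither gene passed in either. EIF3K had 50.8 and 54.5 FPKM without glucose, 38.3 FPKM without glutamine and 60.6 and 60.3 FPKM in control (-0.20 ± 0.05, adjusted p = 0.00834, and -0.65 ± 0.06, adjusted p = 9.04e-05). EIF3J, a loosely bound subunit, had 23.1 and 20.7 FPKM, 18.7 FPKM and 29.4 and 27.9 FPKM (-0.38 ± 0.06 and -0.59 ± 0.07). The call of EIF3K without glucose was lost without either control (adjusted p of 0.0986 and 0.0903), as was the fall of EIF3L without glutamine (0.141 and 0.0743), and the rise of EIF3E without glucose was lost without control replicate 1 (0.0611). EIF3I was the most abundant subunit at 172 and 178 FPKM, 148 FPKM and 223 and 222 FPKM.

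**Figure D2:**
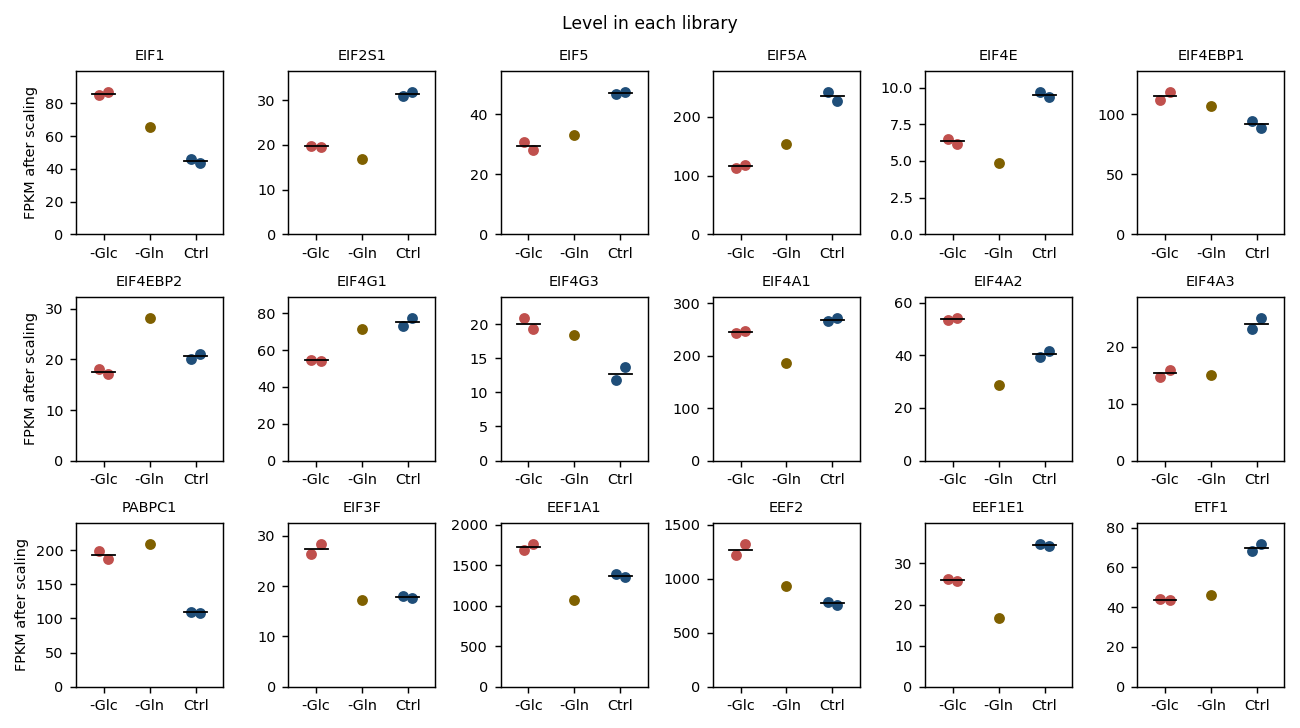
Level in each library (y axis, FPKM after scaling, from 0) of 18 members in glucose deprivation (-Glc, 2 libraries), glutamine deprivation (-Gln, 1 library) and control medium (Ctrl, 2 libraries). Points are libraries and lines are means of 2, and for EIF4A2 and EEF1A1 the glucose-deprived libraries lie above and the glutamine-deprived one below the controls.

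The cap-binding protein gene EIF4E fell in both deprivations. It had 6.53 and 6.16 FPKM without glucose, 4.87 FPKM without glutamine and 9.7 and 9.34 FPKM in control, with log2 changes of -0.52 ± 0.05 (adjusted p = 6.54e-05) and -0.84 ± 0.06 (adjusted p = 3.85e-05). All deprived libraries were below both controls and glutamine deprivation was the lowest (-0.32 ± 0.06 against glucose deprivation, adjusted p = 0.00262). EIF4E2, a cap-binding relative that acts in repression, fell alongside, to 8.86 and 8.59 FPKM without glucose and 7.73 FPKM without glutamine, against 12.7 and 12.5 FPKM in control (-0.48 ± 0.04 and -0.64 ± 0.05).

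The RefSeq window of EIF4E holds 2 copies of the E-box CACGTG, the palindrome bound by MYC and its relatives, which reads alike on both strands. It is printed from 250 bases before to 20 bases after the start, on chr4:98929114-98929383 (minus strand), with the E-boxes in capitals.
EIF4E: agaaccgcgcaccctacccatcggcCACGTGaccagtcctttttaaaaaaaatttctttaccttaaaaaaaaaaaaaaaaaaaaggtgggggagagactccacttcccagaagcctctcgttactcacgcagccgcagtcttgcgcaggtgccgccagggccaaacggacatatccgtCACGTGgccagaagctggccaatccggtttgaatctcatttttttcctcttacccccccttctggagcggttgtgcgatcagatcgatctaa
This motif was in the windows of 10 of 38 members (26.3%), against 8.77% of genes in the table, many of which were not tested here. Its share among the tested genes was not counted. The 10 moved in both directions without glucose, 4 higher (EIF1B, EIF3F, EIF4B, EEF2K) and 6 lower (EIF2B3, EIF3K, EIF4A3, EIF4E, EIF4G1, EIF4H), with a median of -0.19, and the 28 without it had a median of -0.22. Without glutamine 2 of the 10 rose and 5 fell (median -0.33), against 4 and 21 of the 28 without it (median -0.46). Between the deprivations 1 of the 10 was higher and 5 were lower, and both medians were -0.23. For reference, 26.6% of all genes tested rose and 28.3% fell without glucose, 24.6% and 26.4% without glutamine. Between the deprivations 22.4% of all genes tested were higher and 22.1% lower. The shares of the abundant genes were 21.3% and 52.5%, 10.6% and 64.8%, and 18.1% and 43.8% in the same order.

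The repressors of eIF4E behaved differently from each other. EIF4EBP1, a known target of the stress factor ATF4, rose in both deprivations, with 112 and 119 FPKM without glucose, 107 FPKM without glutamine and 94.6 and 88.9 FPKM in control (0.33 ± 0.05, adjusted p = 0.00093, and 0.22 ± 0.06, adjusted p = 0.0176). EIF4EBP2 had 18.1 and 17.0 FPKM without glucose, 28.2 FPKM without glutamine and 20.1 and 21.1 FPKM in control. It therefore fell without glucose (-0.22 ± 0.05, adjusted p = 0.00518) and rose without glutamine (0.43 ± 0.06, adjusted p = 0.000595), and the direct difference was the largest rise of any member in that comparison (0.65 ± 0.06, adjusted p = 0.000162). Its fall without glucose was lost with scaling to the total (-0.11, adjusted p = 0.625) and with no filter on low values (adjusted p = 0.0758). Leaving out control replicate 2 ended the fall of EIF4EBP2 without glucose (adjusted p = 0.089), and leaving out control replicate 1 or 2 ended the rise of EIF4EBP1 without glutamine (0.0584 and 0.137).

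Among the scaffold genes, EIF4G1 and EIF4G2 fell without glucose, did not pass without glutamine and were higher without glutamine than without glucose. The fall of EIF4G1 without glucose was lost with scaling to the total (-0.35, adjusted p = 0.106), and EIF4G2 passed without glutamine when genes averaging under 5 FPKM were left out (adjusted p = 0.0429) or the moderation was robust (0.0369). EIF4G1, the main scaffold of the cap-binding complex, had 54.8 and 53.9 FPKM without glucose, 71.2 FPKM without glutamine and 73.2 and 77.3 FPKM in control. Its changes were -0.46 ± 0.05 (adjusted p = 0.000118) without glucose, -0.08 ± 0.06 (adjusted p = 0.278) without glutamine and 0.38 ± 0.06 (adjusted p = 0.00122) between the deprivations. EIF4G2, a scaffold that lacks the eIF4E binding part, had 67.4 and 65.7 FPKM, 90.4 FPKM and 97.9 and 104 FPKM (-0.59 ± 0.05, adjusted p = 4.49e-05, and -0.15 ± 0.06, adjusted p = 0.058). EIF4G3, the less abundant homolog of EIF4G1, rose in both, with 20.9 and 19.3 FPKM without glucose, 18.5 FPKM without glutamine and 11.8 and 13.6 FPKM in control (0.62 ± 0.07, adjusted p = 0.000194, and 0.51 ± 0.08, adjusted p = 0.00165).

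The helicase genes diverged without glucose. EIF4A1, the abundant helicase, had 243 and 248 FPKM without glucose, 186 FPKM without glutamine and 266 and 271 FPKM in control. Its fall without glutamine was -0.53 ± 0.06 (adjusted p = 0.000207), and the small change without glucose (-0.13 ± 0.05, adjusted p = 0.0444) lost its call when any glucose-deprived or control library was left out (0.0806 to 0.286). EIF4A2, its close paralog, had 53.3 and 54.1 FPKM without glucose, 28.9 FPKM without glutamine and 39.5 and 41.9 FPKM in control. It rose without glucose (0.39 ± 0.04, adjusted p = 0.000211), fell without glutamine (-0.48 ± 0.05, adjusted p = 0.00025) and had the largest difference of any member between the deprivations (-0.87 ± 0.05, adjusted p = 5.23e-05). With scaling to the total the falls of EIF4A1 and EIF4A2 without glutamine were smaller (-0.21 and -0.17) and not called. EIF4A3, which serves in the exon junction complex rather than in initiation, fell to 14.8 and 15.9 FPKM without glucose and 14.98 FPKM without glutamine, against 23.1 and 25.01 FPKM in control.

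The helicase cofactor genes EIF4B and EIF4H also differed. EIF4B had 211 and 209 FPKM without glucose, 147 FPKM without glutamine and 159 and 157 FPKM in control (0.41 ± 0.04, adjusted p = 0.00019, and -0.10 ± 0.05, adjusted p = 0.155). EIF4H had 89.0 and 93.3 FPKM, 68.1 FPKM and 103 and 105 FPKM (-0.19 ± 0.04, adjusted p = 0.00727, and -0.60 ± 0.05, adjusted p = 8.79e-05). EIF4B thus stood above the controls without glucose only, whereas EIF4H stood below them in all deprived libraries, and its call without glucose was lost without control replicate 1 or 2 (0.0744 and 0.102).

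PABPC1, which binds the poly(A) tail and joins it to eIF4G, was the member with the largest rise without glutamine. It had 199 and 187 FPKM without glucose, 208 FPKM without glutamine and 109.8 and 108 FPKM in control (0.82 ± 0.05, adjusted p = 1.38e-05, and 0.93 ± 0.06, adjusted p = 3.49e-05). The deprived libraries lay close together and well above the controls (0.11 ± 0.06 between the deprivations, adjusted p = 0.173). PABPC4, a relative with the same role, rose by less (0.38 ± 0.05 and 0.22 ± 0.07).

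The elongation factors hold the most abundant members: EEF1A1, EEF2 and EEF1G were the 3 highest in each medium, in this order. EEF1A1, which delivers aminoacyl-tRNA to the ribosome, had 1687 and 1757 FPKM without glucose, 1068 FPKM without glutamine and 1387 and 1357 FPKM in control. Glucose-deprived libraries were above and the glutamine-deprived one below both controls (0.33 ± 0.07, adjusted p = 0.00588, and -0.36 ± 0.09, adjusted p = 0.0105), with a direct difference of -0.69 ± 0.09 (adjusted p = 0.000708). With scaling to the total EEF1A1 passed in none of these, at 0.44 (adjusted p = 0.0649), -0.04 (0.91) and -0.48 (0.124). It also lost its glutamine call with values as deposited (0.153) and upper-quartile scaling (0.107). Its calls against control were fragile: the first was lost whichever glucose-deprived or control library was left out (0.0515 to 0.158) and the second without either control (0.174 and 0.149).

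EEF2, the translocase, rose to 1220.2 and 1316 FPKM without glucose and 930.4 FPKM without glutamine, against 786 and 756 FPKM in control. The rise was 0.72 ± 0.07 (adjusted p = 8.03e-05) without glucose and 0.27 ± 0.08 (adjusted p = 0.0233) without glutamine, and the second was lost without either control (0.154 and 0.223). EEF2K, the kinase that inactivates EEF2 protein, was among the least abundant members, with 7.35 and 7.57 FPKM without glucose, 7.24 FPKM without glutamine and 6.04 and 5.74 FPKM in control (0.30 ± 0.05, adjusted p = 0.00114, and 0.26 ± 0.06, adjusted p = 0.0067, or 0.0697 without control replicate 2). The direct difference between the deprivations passed for EEF2 (-0.45 ± 0.08, adjusted p = 0.00314), though not when a control was left out (0.0509), and not for EEF2K (-0.04 ± 0.06).

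The subunit genes of the eEF1 exchange complex followed EEF1A1 in part. EEF1B2, a nucleotide exchange subunit, had 244 and 243 FPKM without glucose, 151 FPKM without glutamine and 211 and 219.6 FPKM in control (0.18 ± 0.04, adjusted p = 0.00882, lost without control replicate 1 or 2 at 0.126 and 0.0604, and -0.51 ± 0.05, adjusted p = 0.00016). EEF1G, the structural subunit, rose without glucose (0.39 ± 0.05) and did not pass without glutamine (-0.10 ± 0.06). EEF1D, the other exchange subunit, moved little in either, by 0.01 ± 0.04 and -0.15 ± 0.05, of which the second passed (adjusted p = 0.0336) and had a positive sign with the values as deposited and with upper-quartile or total scaling. EEF1E1 (chr6:8073360-8102578, minus strand), which despite its name is part of the aminoacyl-tRNA synthetase complex, had the largest fall of any member without glutamine, with 26.3 and 25.7 FPKM without glucose, 16.8 FPKM without glutamine and 34.6 and 34.2 FPKM in control (-0.39 ± 0.04, adjusted p = 0.000201, and -0.99 ± 0.05, adjusted p = 2.46e-05).

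EIF5A (chr17:7306999-7312463, plus strand), which relieves stalled elongation and carries the hypusine modification, had the largest fall of any member without glucose. It stood at 113 and 119 FPKM without glucose, 153 FPKM without glutamine and 242 and 227 FPKM in control (-1.01 ± 0.05, adjusted p = 7.56e-06, and -0.61 ± 0.06, adjusted p = 0.000145). Both deprivations were below both controls, and glutamine deprivation lay above glucose deprivation (0.40 ± 0.06, adjusted p = 0.00144). ETF1, the factor that recognises stop codons, fell by a like amount in both, to 43.9 and 43.6 FPKM without glucose and 46.4 FPKM without glutamine, against 68.1 and 71.6 FPKM in control (-0.66 ± 0.04, adjusted p = 1.84e-05, and -0.58 ± 0.05, adjusted p = 9.67e-05).

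The 10 members known from other mammalian cells to have TOP mRNAs (EEF1A1, EEF1B2, EEF1D, EEF1G, EEF2, EIF3E, EIF3F, EIF3H, EIF4B, PABPC1) are set beside the other 38 as a description of these libraries. Of the 10, 9 rose without glucose and none fell, with a median log2 change of 0.36 and a range from 0.01 for EEF1D to 0.82 for PABPC1. Of the other 38, 9 rose and 22 fell without glucose, with a median of -0.21. Without glutamine 2 of the 10 rose (PABPC1 and EEF2) and 5 fell, with a median of -0.12, and 7 of the other 38 rose and 28 fell, with a median of -0.40; with scaling to the total the median of the 10 was 0.19 and none of them fell. In the direct comparison 9 of the 10 were lower without glutamine, with a median of -0.50, against a median of -0.18 for the other 38. PABPC1 was the exception. Beside these counts, 26.6% of all genes tested rose and 28.3% fell without glucose, and 24.6% rose and 26.4% fell without glutamine. Of the abundant genes 21.3% rose and 52.5% fell without glucose, and 10.6% rose and 64.8% fell without glutamine. In the direct comparison 22.1% of all genes tested and 43.8% of the abundant genes were lower. With scaling to the total none of the 10 passed there (median -0.29), and the median of the other 38 was 0.0052, and without glucose 6 of the 10 rose (median 0.47). A scaling factor moves both sets nearly alike and several settings leave fold changes as they are, so the gap between the medians is no test of stability: of the alternatives, 7 of 17 for glucose deprivation, 7 of 16 for glutamine deprivation and 8 of 16 for the direct comparison gave exactly the gap of the scaling and fit used. That gap was 0.57 without glucose, 0.28 without glutamine and -0.31 in the direct comparison. Summed, the 10 genes stood at 4652 and 4804 FPKM without glucose, 3279 FPKM without glutamine and 3512 and 3433 FPKM in control, and the other 38 at 1946 and 1988 FPKM, 1721 FPKM and 2213 and 2226 FPKM.

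Sorting by the annotated start sequence overlaps with the known list, since 5 of the 9 members with a run (EEF2, EEF1A1, EEF1B2, EIF3F and EIF4B) are on it. Of the 9 members with a pyrimidine run at the annotated start, 6 rose and 1 fell without glucose (median 0.33), 1 rose and 6 fell without glutamine (median -0.36), and 9 were lower in the direct comparison (median -0.51). Of the 29 members whose windows had no such run, 5 rose and 21 fell without glucose (median -0.33), 5 rose and 20 fell without glutamine (median -0.48), and 13 were lower in the direct comparison (median -0.13). The shares that fell without glutamine were thus close, at 6 of 9 and 20 of 29. Sorted by the known list they were 5 of 10 and 28 of 38, but these shares cover different members. EEF1D, EIF3E, EIF3H and PABPC1 are on the known list but had no window, so they count in neither the 9 nor the 29. The 38 off the list also include members with no window. How far the missing windows shape this contrast, or the overlap of the sortings, was not tested. EIF4A2, with the run CTTTTC, is not on the known list and rose without glucose, whereas EIF3K, with the run CTCTTCCT, fell, and EIF3D and EIF3M, which also have runs, did not pass (0.09 and -0.04). EEF1G is on the known list, has no run at its annotated start and rose without glucose (0.39 ± 0.05). Among all 9832 tested genes with a window, the 743 with a run had medians of 0.11, -0.05 and -0.14 in these comparisons. Of the 743, 316 rose and 173 fell without glucose, 188 rose and 276 fell without glutamine, and 328 were lower in the direct comparison. The 9089 without a run had medians of -0.05, -0.04 and 0.0047. Of the 9089, 2354 rose and 3411 fell without glucose, 2225 rose and 3159 fell without glutamine, and 2448 were lower in the direct comparison.

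**Figure D3:**
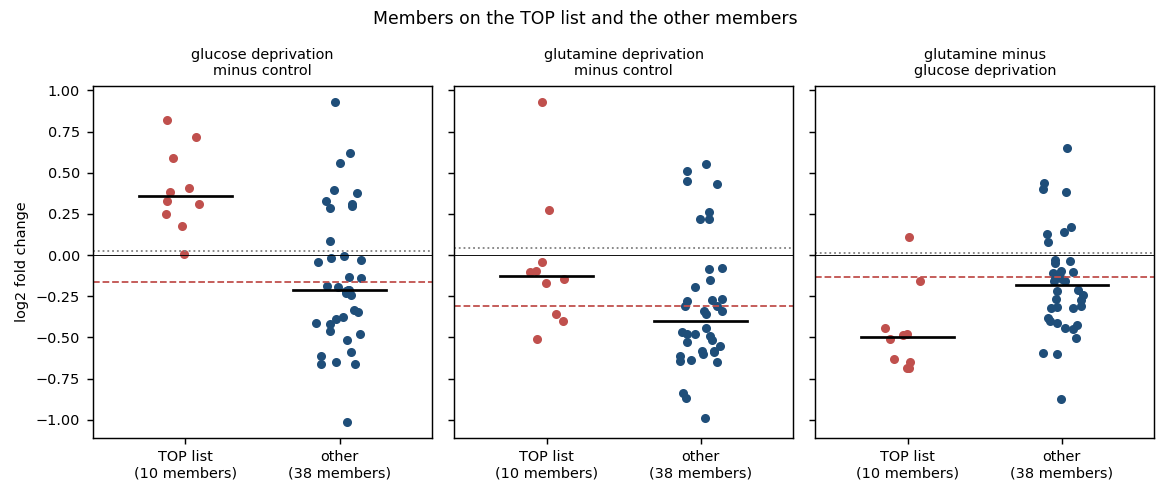
Log2 fold change (y axis) of the 10 members on the TOP list and the other 38 members in the 3 comparisons; points are genes, black bars are medians, the dotted line is the median of all genes tested and the dashed line that of abundant genes. The medians were 0.36 and -0.21 without glucose, -0.12 and -0.40 without glutamine and -0.50 and -0.18 between the deprivations.

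Ratios of members within a library do not depend on any scaling between libraries, and they are given without a test. The log2 ratio of EIF4EBP1 to EIF4E was 4.10 and 4.27 without glucose, 4.46 without glutamine and 3.29 and 3.25 in control, so every deprived library had more repressor transcript per cap-binding protein transcript than either control. For EIF4EBP2 to EIF4E the values were 1.47 and 1.47, 2.53, and 1.06 and 1.18. The ratio of EIF4G3 to EIF4G1 was -1.39 and -1.48 without glucose, -1.95 without glutamine and -2.63 and -2.50 in control. That of EIF4A2 to EIF4A1 was -2.19 in both glucose-deprived libraries, -2.69 without glutamine and -2.75 and -2.70 in control, and so set glucose deprivation apart from the other media. PABPC4 to PABPC1 went the other way, with -2.71 and -2.56, -2.91, and -2.28 and -2.12. EEF2K to EEF2 was -7.38 and -7.44 without glucose, -7.01 without glutamine and -7.02 and -7.04 in control. The other fixed pairs, not drawn, follow with the media in the same order. EIF4G2 to EIF4G1 was 0.30 and 0.28, 0.34, and 0.42 and 0.42. For EIF1B to EIF1 the values were -2.68 and -2.72, -2.43, and -2.49 and -2.24. EIF4EBP1 to EIF4EBP2 was 2.63 and 2.80, 1.93, and 2.23 and 2.07. EIF4E2 to EIF4E was 0.44 and 0.48, 0.67, and 0.39 and 0.42. EIF5B to EIF5 was -1.81 and -2.02, -1.95, and -2.34 and -2.37.

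**Figure D4:**
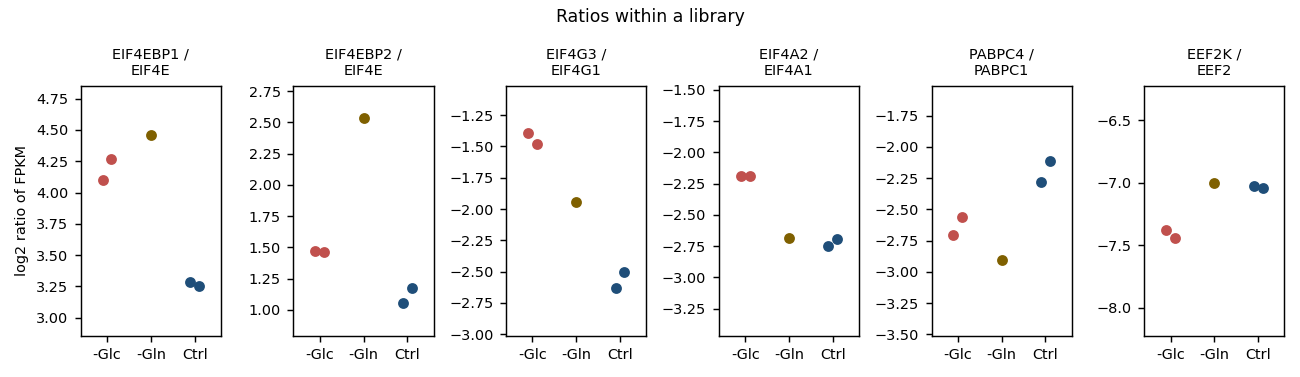
Log2 ratio of the FPKM of 6 pairs of members (y axis, the same span of log2 units in each panel) in each library of glucose deprivation (-Glc), glutamine deprivation (-Gln) and control medium (Ctrl). For EIF4EBP1 to EIF4E the deprived libraries lie between 4.10 and 4.46 and the controls at 3.25 and 3.29.

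Reads of some members can be shared with other annotated genes, and their levels are uncertain for that reason. EIF3C, at 2.67 and 2.51 FPKM without glucose, 1.9 FPKM without glutamine and 2.96 and 2.94 FPKM in control, was by far the lowest eIF3 subunit gene, and it has a near-identical copy, EIF3CL, at 0.831 to 1.296 FPKM. The read-through gene SENP3-EIF4A1 shares the exons of EIF4A1 and was listed at 331 and 338 FPKM, 259 FPKM and 369 and 377 FPKM, with changes of -0.16 ± 0.05 and -0.53 ± 0.06 that match those of EIF4A1 in sign and size. AP002990.1, which overlaps EEF1G on the same strand, was at 461 and 462 FPKM, 330.1 FPKM and 360.4 and 348 FPKM (0.38 ± 0.05 and -0.10 ± 0.06), and EEF1E1-BLOC1S5 at 19.6 and 19.4 FPKM, 14.7 FPKM and 24.1 and 22.9 FPKM (-0.26 ± 0.06 and -0.64 ± 0.08). The 40 listed EEF1A1 copies summed to 3.90% of EEF1A1, and EEF1A1P5, the most abundant, had 45.8 and 42.9 FPKM, 19.1 FPKM and 36.5 and 30.1 FPKM. Strand use in counting was not given in the sources used here, so reads of genes that overlap a member on the opposite strand, such as RFC4 at EIF4A2, CTR9 at EIF4G2 and GPS2 at EIF5A, cannot be told apart from those of the member. TXNDC9 and REV1 overlap EIF5B in this way at levels like its own (9.63 and 7.20 FPKM against 8.55 FPKM, means over 5 libraries).

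Other genes of the pathway were taken from fixed lists. Beside their counts, 26.6% of all genes tested rose and 28.3% fell without glucose, and 24.6% rose and 26.4% fell without glutamine. Of the abundant genes 21.3% rose and 52.5% fell without glucose, and 10.6% rose and 64.8% fell without glutamine. In the direct comparison 22.4% of all genes tested were higher and 22.1% lower, and 18.1% and 43.8% of the abundant genes. Of 24 other initiation factors and partners, 10 rose and 10 fell without glucose (median -0.02) and 6 rose and 13 fell without glutamine (median -0.28). With scaling to the total the counts were 7 and 2 without glucose and 7 and 1 without glutamine. EIF2A, an alternative initiator tRNA carrier, rose without glucose (0.64 ± 0.04) and had the largest direct difference (-0.99 ± 0.05), with 36.5 and 36.4 FPKM without glucose, 17.9 FPKM without glutamine and 23.0 and 23.1 FPKM in control. PABPC1L rose in both (0.84 ± 0.07 and 0.96 ± 0.09), as did LARP1, the repressor that binds TOP mRNAs (0.24 ± 0.04 and 0.72 ± 0.05). DENR, a factor of re-initiation, led the falls without glucose (-0.80 ± 0.05), and the ribosome recycling gene ABCE1 (-0.60 ± 0.04 and -0.92 ± 0.05) fell in both, with DDX3X next to it without glutamine (-0.81 ± 0.06). Set directly against glucose deprivation, glutamine deprivation had less EIF2D, another alternative initiation factor (-0.51 ± 0.05). It had more LARP1 (0.48 ± 0.05) and more PAIP2B, an inhibitor of poly(A) binding protein (0.28 ± 0.06).

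Of 15 other elongation, termination and recycling factors, 5 rose and 7 fell without glucose (median -0.20) and 2 rose and 10 fell without glutamine (median -0.26). With scaling to the total the counts were 5 and 3 without glucose and 2 and 0 without glutamine. The enzyme genes that make hypusine on EIF5A moved apart without glucose, DHPS by 0.43 ± 0.05 and DOHH by -0.58 ± 0.07. EIF5A2, the paralog of EIF5A, fell in both (-0.59 ± 0.06 and -0.59 ± 0.08). EFL1, which releases EIF6 from the large subunit, rose without glucose (0.39 ± 0.05) and fell without glutamine (-0.23 ± 0.06, or 0.0442 with scaling to the total). GSPT2, a partner of ETF1, fell without glucose (-0.64 ± 0.10). The selenocysteine factor gene EEFSEC rose (0.47 ± 0.08) and the diphthamide gene DPH2 fell (-0.64 ± 0.10) without glutamine. EEF1A2, the paralog of EEF1A1, rose in both deprivations, with 15.09 and 17.1 FPKM without glucose, 15.9 FPKM without glutamine and 13.1 and 11.1 FPKM in control (0.38 ± 0.08, adjusted p = 0.00519, and 0.37 ± 0.10, adjusted p = 0.0171), where EEF1A1 fell without glutamine. Between the deprivations EEFSEC (0.47 ± 0.08) and GSPT1, the main partner of ETF1 (0.23 ± 0.05), were higher and EFL1 (-0.63 ± 0.06) and DPH5, another diphthamide gene (-0.53 ± 0.06), were lower.

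Of 7 genes that set the phosphorylation of eIF2 alpha, 3 rose and 1 fell in each deprivation, with medians of -0.0097 and 0.06. With scaling to the total 2 rose and none fell without glucose, and 3 rose and none fell without glutamine. With values as deposited 3 rose and none fell without glucose, and 5 rose and 1 fell without glutamine. PPP1R15A, the stress-induced phosphatase subunit, stood at 25.3 and 25.9 FPKM without glucose, 14.2 FPKM without glutamine and 9.55 and 9.40 FPKM in control. EIF2AK3, the endoplasmic reticulum kinase PERK, stood at 7.27 and 7.37 FPKM, 3.67 FPKM and 4.96 and 4.98 FPKM, so that it rose without glucose (0.48 ± 0.05) and fell without glutamine (-0.35 ± 0.06). The fall of EIF2AK3 without glutamine was not called with scaling to the total. EIF2AK2, the kinase PKR, rose without glutamine (0.28 ± 0.06), and PPP1R15B, the constitutive phosphatase subunit, was called lower without glucose (-0.14 ± 0.04, adjusted p = 0.018), a call lost with values as deposited (0.126), upper-quartile scaling (0.336) and scaling to the total (0.922). Without glutamine, set against without glucose, EIF2AK2 (0.29 ± 0.06) and EIF2AK1, the heme-regulated kinase (0.22 ± 0.05), were higher and EIF2AK3 (-0.83 ± 0.06) and PPP1R15A (-0.80 ± 0.05) were lower. Of 10 genes of mTORC1, S6 kinase and MNK signalling, 3 rose and 3 fell without glucose and 2 rose and 5 fell without glutamine. With scaling to the total none passed without glucose and 2 rose and none fell without glutamine, so the falls given here for this list were lost, and with values as deposited 4 rose and 3 fell without glutamine. With the scaling used, the kinase gene MKNK2 stood at -0.43 ± 0.05 and 0.21 ± 0.07, the mTORC1 scaffold gene RPTOR at -0.13 ± 0.05 (adjusted p = 0.0727) and 0.52 ± 0.07, and RHEB, the GTPase that activates mTORC1, at -0.21 ± 0.04 and -0.47 ± 0.05. MTOR itself rose (0.20 ± 0.04) and AKT1S1, an inhibitor of mTORC1, fell (-0.30 ± 0.05) without glucose. RPS6, a ribosomal protein gene and substrate of S6 kinase, stood at 399.9 and 406 FPKM without glucose, 268 FPKM without glutamine and 329 and 325 FPKM in control (0.30 ± 0.04 and -0.29 ± 0.05, the second at 0.0315 with scaling to the total), and RPS6KB2, a gene of S6 kinase, fell without glutamine (-0.41 ± 0.07). Between the deprivations RPTOR (0.66 ± 0.07) and MKNK2 (0.65 ± 0.07) were higher and RPS6 (-0.59 ± 0.05) and RPS6KB2 (-0.43 ± 0.07) were lower. Of 10 mitochondrial translation factors, 1 rose (MRRF, 0.30 ± 0.04) and 7 fell without glucose, TSFM (-0.49 ± 0.05) and TUFM (-0.43 ± 0.04) by the most, and 8 fell without glutamine, MTIF3 (-0.66 ± 0.06) and GFM1 (-0.62 ± 0.06) by the most, with medians of -0.20 and -0.43. Of the abundant genes 52.5% fell without glucose and 64.8% without glutamine, with medians of -0.16 and -0.31. With scaling to the total 1 of the 10 mitochondrial factors rose and 1 fell without glucose, and none passed without glutamine (median -0.15). Between the deprivations 5 were lower, MTIF2 (-0.50 ± 0.06) and MTIF3 (-0.45 ± 0.06) by the most. Scaling to the total also changed the direct counts of these 5 lists. With it 2 other initiation factors were higher and 1 lower, in place of 4 and 10, and 1 other elongation factor was higher and 1 lower, in place of 2 and 7. The counts were 1 and 2 in place of 3 and 3 for eIF2 alpha phosphorylation, 3 and 0 in place of 3 and 5 for mTORC1 signalling, and 0 and 0 in place of 0 and 5 for mitochondrial factors.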

How the data were processed

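RNA after removal of ribosomal RNA was sequenced in pairs, per the labels' protocols. Alignment used HISAT2 2.0.5 on hg38 and quantification named StringTie, per the submitters' processing notes. The sources used here do not give the annotation, the strand setting or the StringTie version. FPKM is the unit assumed for the values the authors deposited, inferred from their fractional form and unequal sums, since no header names it. Low values of single-exon genes fell on whole fragments in 95.1% to 95.8% of cases within 0.05, which gave the depth. Beside the glutamine-deprived library, 1 value column carries the name of a glucose sample; it was not used, so 5 of 6 labelled libraries entered. Replicates are not stated to be separate cultures, and the p-values cover the spread among these libraries alone, which may be technical.

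FPKM were divided by trimmed-mean factors (0.960 to 1.08, computed over genes averaging 1 FPKM or more, trimmed by 30% of ratios and 5% of abundances). Genes with at least 1 FPKM in a library (16598) were tested on log2(FPKM + 1) with limma 3.58.1 in R 4.3.3, a coefficient per medium, a variance trend over inferred fragments (exon lengths from GENCODE release 29), no replicate block, and Benjamini-Hochberg adjustment over all genes, two-sided, at 0.05. Fold changes on this scale understate changes of low genes. The script was tested on simulated data. Values per library were given for the 10 members with the largest called change in each comparison and 15 fixed members, 31 in all, with other members by range or where a role needed them; of the other lists, the 2 largest called rises and falls in each comparison were named, a few with values per library, plus DOHH, chosen after its values were seen. The members, lists and settings were chosen with earlier results of these data known, and the sorting by start sequence and the windows shown after the values were seen.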

Additional observations from a re-analysis of the deposited data

How the results depend on the processing

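Across 17 alternatives for glucose deprivation and 16 for each other comparison the member counts moved by more than 1.5 times only as follows. In glucose deprivation 22 members were called lower, against 8 under scaling to the total and 14 without a filter on low values; the median of members (-0.09) was 0.0257 under scaling to the total and 0.0058 under upper-quartile scaling. Leaving out 1 library gave 15 to 18 members higher and 14 to 22 lower, with medians from -0.09 to -0.07; the lowest count came without control replicate 2. In glutamine deprivation 33 were called lower, against 3 under scaling to the total, and 9 higher, against 4 without a filter. The median (-0.34) was -0.19 with the values as deposited, -0.17 by the upper quartile and -0.0354 by the total. Leaving out 1 library gave 6 to 8 higher and 26 to 33 lower, with medians of -0.34 in each. In the direct comparison 29 were lower, against 1 under scaling to the total, and 4 higher, against 8 with values as deposited and 8 under upper-quartile scaling; the median (-0.25) was -0.14, -0.17 and -0.0506 with values as deposited, upper-quartile scaling and scaling to the total. Leaving out 1 library gave 4 to 6 higher and 25 to 28 lower, with medians from -0.27 to -0.25. Part of these moves follows from the construction, since scaling to the total moved the median of all genes to 0.11, 0.30 and 0.19; the share of all calls that were higher went to 67.8%, 91.2% and 85.5%, against 48.4%, 48.2% and 50.4% with the scaling used. The cause of the others was not tested. Among the 31 named members, changes that were called and turned sign, all under scaling to the total and none called there, were EIF2S2 (0.0441), EIF3A (0.0082) and EIF3L (0.12) in glutamine deprivation and EIF4E2 (0.028) in the direct comparison.

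The replicate numbers carry no stated pairing, and deviations of same-numbered glucose-deprived and control libraries correlated with r = -0.02 across genes. With the replicate number as a block, 17 members were higher and 22 lower in glucose deprivation, 8 were higher and 29 lower in glutamine deprivation, and 4 were higher and 27 lower in the direct comparison; EEF1A1 and EIF4A1 lost their calls in glucose deprivation, EEF1A1, EEF2 and EIF3L in glutamine deprivation and EIF4E2 in the direct comparison.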
